A study of Drosophila melanogaster with 2 samples.

Results

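Binding of the nuclear receptor Hr39 was described over 10 genes of the basement membrane and of its remodelling: the matrix metalloproteinases Mmp1 and Mmp2, their inhibitor Timp, the collagen IV chains Col4a1 and vkg, the laminin chains LanA, LanB1 and LanB2, the perlecan gene trol, and SPARC. The genes were chosen by name among 13945 protein-coding genes, and a region was assigned to a gene where its summit, the position of highest signal, lay in the gene or within 5 kb of either end. This gave 20 of the 7426 regions on the chromosome arms in the optimal set. That set was selected through a comparison of ranks between replicates, and on the arms it held exactly the strongest regions called from both replicates together. Not every region in it was found in both: 93.6% had a candidate summit of each replicate within 100 bp. The samples form 1 group of whole white prepupae of *Drosophila melanogaster*, the stage at the onset of metamorphosis, with males and females pooled and the age given as unknown. The line, strain Hr39-RC-GFP, stably expresses Hr39 with GFP at its C terminus from an insertion targeting Hr39, and the fusion protein (Hr39-eGFP) was precipitated with an anti-GFP antibody and its DNA sequenced (ChIP-seq). There were 2 biological replicates, numbered 1 and 3. No second condition and no animals without the fusion were analysed here, so no comparison between conditions was made and signal that does not depend on Hr39 cannot be told apart. Whole animals mix all tissues, so the tissue in which a region was bound cannot be told apart either, and peak lists hold no RNA with which the label could be checked against markers. Read depth is unknown from the peak lists.

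The basement membrane is a sheet of extracellular matrix under epithelia and around muscle, fat body and other organs. Collagen IV and laminin each form a network, perlecan binds to these networks, and SPARC is a collagen-binding glycoprotein needed for normal collagen IV deposition. In the fly, much of the collagen IV is made by fat body and blood cells. Metalloproteinases cut matrix proteins, and in *Drosophila* they are needed for tissue remodelling at metamorphosis, including the detachment of fat body cells. Timp binds and blocks them. Hr39 is 1 of 2 fly receptors of the NR5 family, with Ftz-F1, and members of this family bind an extended hormone receptor site whose core is AAGGTCA.

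Sequences of 101 bases centred on 6 of the summits show what the bound positions look like. The first 3 lay at the promoters of the member genes themselves, the next was the strongest intron region, the LanB1 region held the sole match to the NR5 core, and the last was the strongest region of the set. They are the plus strand of dm6 (RefSeq Release 6), written 5′ to 3′. Capitals mark the longest unbroken run of A and T bases, except in the LanB1 region, where they mark AAGGTCA.
Timp promoter, chr3R:10213613-10213713: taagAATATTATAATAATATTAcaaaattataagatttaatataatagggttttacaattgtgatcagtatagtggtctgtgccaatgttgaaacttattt
LanA promoter, chr3L:6217368-6217468: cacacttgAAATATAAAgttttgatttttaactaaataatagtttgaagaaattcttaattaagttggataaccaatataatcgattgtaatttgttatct
trol internal promoter, chrX:2518471-2518571: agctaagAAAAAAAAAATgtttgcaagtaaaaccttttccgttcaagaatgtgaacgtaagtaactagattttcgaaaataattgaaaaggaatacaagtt
trol intron, chrX:2536274-2536374: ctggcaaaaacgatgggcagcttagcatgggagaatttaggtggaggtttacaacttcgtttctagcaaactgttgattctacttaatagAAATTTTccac
LanB1 3′ flank, chr2L:7821339-7821439: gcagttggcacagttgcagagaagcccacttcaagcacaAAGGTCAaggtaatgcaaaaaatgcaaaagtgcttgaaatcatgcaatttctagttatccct
SPARC 3′ flank, at ball, chr3R:26866660-26866760: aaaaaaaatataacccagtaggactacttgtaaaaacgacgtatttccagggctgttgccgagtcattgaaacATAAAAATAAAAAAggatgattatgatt
The Timp, LanA and trol promoter windows had a GC content of 21.8%, 20.8% and 27.7%, and their longest A and T runs were 18, 9 and 11 bases. The remaining own promoter region, at Mmp2 and not printed, differed from these 3, with a GC content of 39.6% at the summit and 33.7% in its flanks.

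Of the 10 genes, 7 had an optimal region in the gene or its flanks, against 53.3% of all protein-coding genes. Within the gene itself, 3 of 10 had one (Mmp2, LanA and trol), against 14.5% of all genes. A summit within 1000 bp of a transcription start site (TSS) of the gene, called its own promoter below, was found for 4 of 10 (Mmp2, Timp, LanA and trol), against 25.2% of all genes. This count depended on the distance and the signal: it was 1 at a promoter distance of 500 bp, and 2 when only regions with signal above the median of the optimal set were kept. The share of all genes was not computed at these settings, so whether it falls likewise is unknown. These shares are descriptions of a small set and were not tested. The regions were spread unevenly. Mmp2 had 7 and trol 5, Timp, LanA and SPARC had 2 each, vkg and LanB1 had 1 each, and Mmp1, Col4a1 and LanB2 had 0. Mmp2 (72.7 kb) and trol (75.0 kb) are far longer than the median protein-coding gene of 2.17 kb. The other members except SPARC are long as well: from 8.8% (Mmp1) to 17.2% (Col4a1) of protein-coding genes are as long or longer, against 40.9% for SPARC. The shares of all genes given above were not matched for length. Over the 324.2 kb of all member windows, the density was 0.62 regions per 10 kb, against 0.55 over the 133.9 Mb of the arms.

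**Figure D1:**
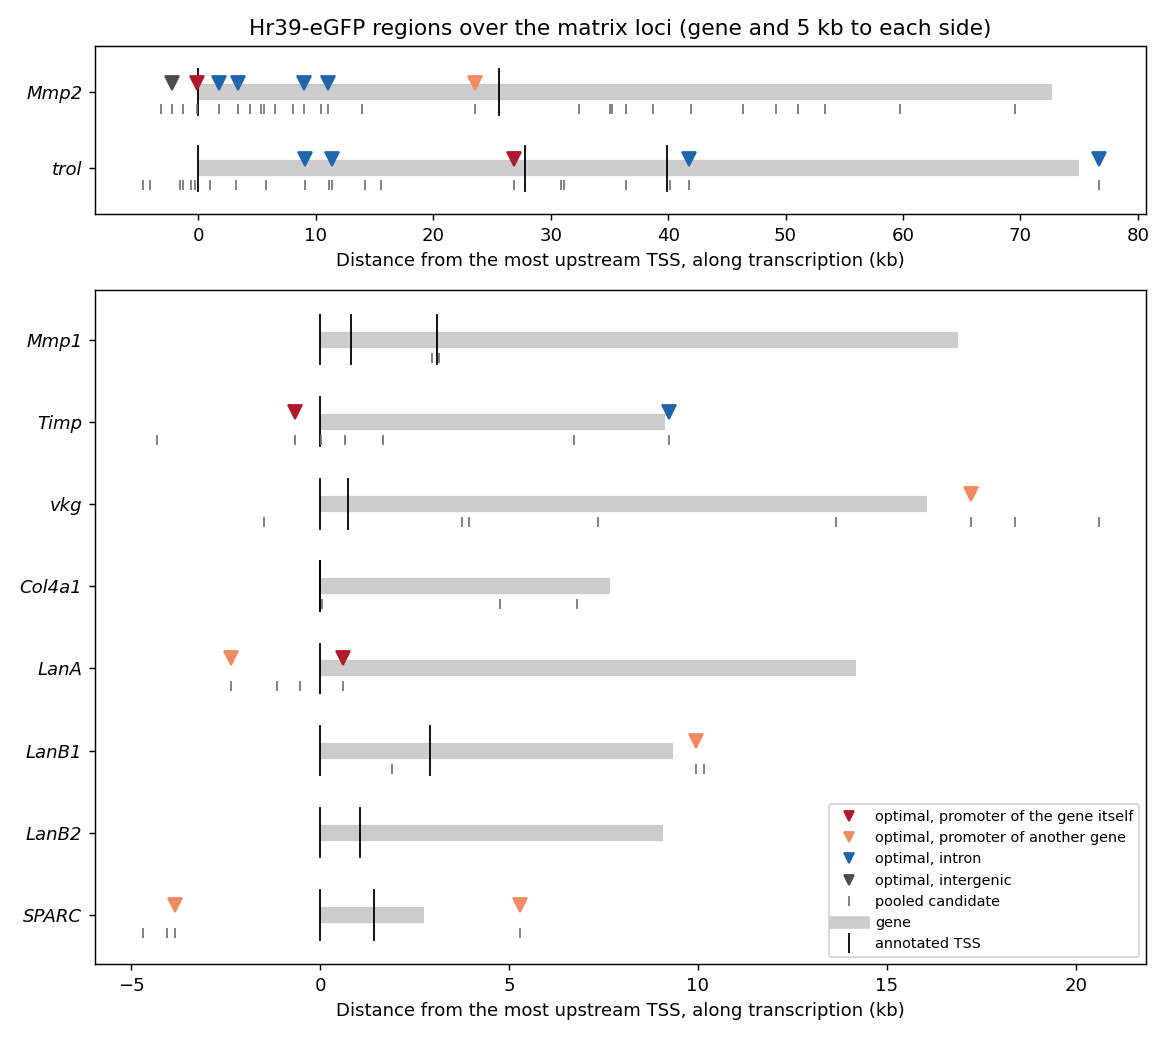
Hr39-eGFP regions over the 10 member loci by distance from the most upstream TSS along transcription (x axis, kb; Mmp2 and trol on a longer scale), with genes as grey bars, TSSs as black lines, optimal regions as triangles coloured by place, and pooled candidates as short ticks. The triangles of Mmp2 gather around and downstream of its upstream TSS, whereas those of Timp, vkg, LanB1 and SPARC lie outside the gene.

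Mmp2, the membrane-anchored metalloproteinase of the fly (2R:9611139-9683858, minus strand), carried the most regions of the set. Only 1% of protein-coding genes had more than its 7 optimal regions, and 1.18% are as long or longer. Of the 7, 6 were nearest to the upstream TSS and their summits spanned 13.3 kb, with 4 in introns, 1 at the promoter and 1 upstream. The highest-ranked one, at 2R:9686009-9686213, was intergenic and lay 2274 bp upstream of the TSS. Ranks run from 1 for the region with the highest signal value in a list. This region ranked 2188 among optimal regions, with 1798 in replicate 1 and 2793 in replicate 3. The intron region at 2R:9672785-9672923, 11003 bp downstream of the TSS, ranked 3555 among optimal regions, with 3531 in replicate 1 and 3860 in replicate 3. A second intron region, at 2R:9680296-9680691, ranked 4183, 4942 and 3806 in the same lists. The promoter region, 166 bp upstream of the TSS, was weaker than all 3, at rank 6170 among optimal regions, with 6019 in replicate 1 and 6627 in replicate 3. Both replicates thus ranked the upstream and the stronger intron regions above the promoter. The remaining 3 regions ranked between 5750 and 6578. One of them lay in Mmp2 at 884 bp from the TSS of an initiator methionine tRNA gene, tRNA:iMet-CAT-2-1.

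Mmp1, the other metalloproteinase, secreted in its main form (2R:24671294-24688184, minus strand), had no optimal region. Both of its pooled candidates lay at an internal TSS at 24685090, at 59 bp downstream with rank 10214 and 141 bp upstream with rank 13535. Replicate 1 had its best candidate there at rank 7749, and replicate 3 at rank 10758. All of these ranks are outside the 7426 regions to which the optimal set and the replicate comparisons were limited, so candidate signal was present at this start site in both replicates but below the threshold. Neither pooled summit was matched within 100 bp by both replicates.

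Timp (3R:10203875-10213007, minus strand), the inhibitor of these proteases among the members, lies inside an intron of Syn, the synapsin gene, which is read from the opposite strand. Its promoter region at 3R:10213576-10213682, 656 bp upstream of the TSS, ranked 5709 among optimal regions, with 6893 in replicate 1 and 5422 in replicate 3. The other region, just past the 3′ end of Timp and in a Syn intron, ranked 7271 among optimal regions, 12634 in replicate 1 and 5898 in replicate 3, so that only replicate 3 placed it among its 7426 strongest regions. Since Timp lies inside Syn, a region here cannot be assigned to either gene by position.

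The collagen IV genes vkg (2L:5012144-5028191, minus strand) and Col4a1 (2L:5029609-5037279, plus strand) are read away from each other across a gap of 1417 bp. No optimal summit lay in either gene or in this gap. The shared upstream side held a weak pooled candidate 51 bp downstream of a Col4a1 TSS, at rank 26963 of 28752, and replicate 3 had a candidate 2 bp upstream of the first Col4a1 TSS, at rank 18424. In replicate 1 the best candidate of the Col4a1 locus ranked 23990. The strongest candidate inside vkg in the pooled list was in an intron, at rank 12878, and was also the strongest there in replicate 3, at rank 14768. Replicate 1 held it at rank 18721 and had a stronger one in the gene, in another part of its introns, at rank 11904. The 1 optimal region of the vkg window, at 2L:5010897-5011031, lay beyond the 3′ end, 43 bp from the TSS of SelT, with TSSs of CG31917 and Tfb5 within 1000 bp. It ranked 2591 among optimal regions, with 3022 in replicate 1 and 2406 in replicate 3.

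SPARC (3R:26869238-26871995, minus strand) showed the same arrangement more strongly. Its 2 optimal regions were among the 3 strongest of the 20, and neither was in the gene or within 1000 bp of its TSSs. The region at 3R:26866551-26866893 lay beyond the 3′ end, 85 bp from a TSS of ball, which encodes a histone kinase, with a TSS of His2Av also within 1000 bp. Its signal value was 623.9, and it ranked 757 among optimal regions, with 671 in replicate 1 and 848 in replicate 3. The region at 3R:26875711-26875924 lay 3846 bp upstream of SPARC and 11 bp from the TSS of ms(3)K81, a sperm telomere protein gene, with TSSs of CG5500 and Rb97D within 1000 bp. It ranked 1680 among optimal regions, with 1916 in replicate 1 and 1615 in replicate 3. By position, the regions counted for vkg and SPARC are therefore promoter regions of neighbouring genes.

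The laminin genes differed among themselves. LanA, an alpha chain (3L:6203831-6218022, minus strand), had an optimal region 604 bp downstream of its TSS, at 3L:6217220-6217615, and ranked 3542 among optimal regions, with 3880 in replicate 1 and 3527 in replicate 3. A stronger one, 2357 bp upstream and 199 bp from the TSS of CG33946, ranked 1133 among optimal regions, with 946 in replicate 1 and 1336 in replicate 3. LanB1, the beta chain (2L:7811438-7820771, plus strand), had 1 optimal region, at 2L:7821298-7821480 beyond its 3′ end. That summit was 46 bp from the TSS of the antisense RNA gene asRNA:CR45008, with a TSS of CG7115 within 1000 bp, and ranked 2843, 2562 and 3142 in the optimal, replicate 1 and replicate 3 lists. Replicate 3 had a further candidate inside LanB1 at rank 7088, which the optimal set did not hold. LanB2, the gamma chain (3L:9614914-9623980, plus strand), had no optimal and no pooled candidate. Replicate 1 alone had a region there, at 3L:9613982-9614357, 744 bp upstream of the TSS and at rank 7220, and replicate 3 had none. The replicates thus differed at LanB1 and LanB2, and LanA was the one laminin gene with an own promoter region in both.

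The perlecan gene trol (X:2470460-2545427, minus strand) has 3 TSSs and carried 5 optimal regions. Genes with more made up 2.21% of protein-coding genes, and 1.1% of genes are as long or longer. The strongest, in an intron at X:2536224-2536447 and 9103 bp downstream of the most upstream TSS, had a signal value of 324.5 and ranked 2082 among optimal regions, with 1850 in replicate 1 and 2417 in replicate 3. Close behind it, the region at X:2518394-2518611 lay 874 bp upstream of an internal TSS at 2517647 and ranked 2249, 2603 and 2029 in these lists. The replicates ordered these regions differently, so their order is not separated from replicate error. The region at X:2468674-2468841, in an intron of boi beyond the 3′ end of trol, ranked 3620, 3070 and 4409. The remaining 2 regions were in introns of trol, at ranks 4596 and 5493. No optimal region lay within 1000 bp of the most upstream trol TSS.

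Placing each summit in 1 class gave 10 promoter regions (a TSS, of whichever gene, at most 1000 bp away), 9 intron regions and 1 intergenic region over the member loci. The promoter share was 50% (95% exact Clopper-Pearson interval 27.2% to 72.8%, for 10 of 20), against 47.4% of all optimal regions. The intron share was 45%, against 35.8%, and the intergenic share 5%, against 15.3%. Among the 7426 strongest regions of each replicate, promoters made up 55% of member regions in replicate 1, against 46% of all regions, and 50% in replicate 3, against 50.4%. The interval spans each of the promoter shares just given. It treats regions as independent, though Mmp2 had 7 of the 20 and trol 5, and a difference in promoter share was not tested. Only 4 of the 10 promoter regions were at a TSS of a member gene, and counting these alone gave a share of 20%. The share was 30% with a promoter distance of 500 bp, and also 30% for the 10 regions inside the member genes. The share over all optimal regions was not computed at these settings, so whether it falls likewise is unknown.

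**Figure D2:**
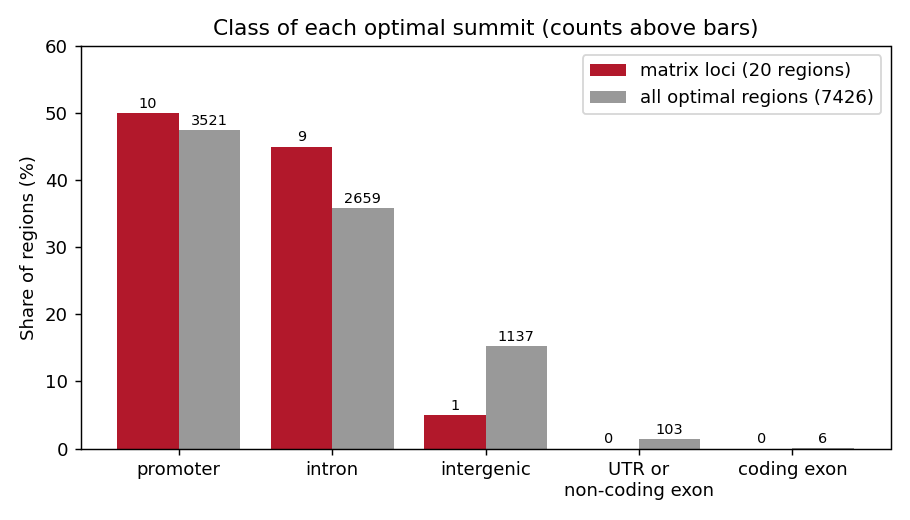
Classes of optimal summits over the member loci (red, 20 regions) and in the whole optimal set (grey, 7426 regions), as the share of regions (y axis, %) with counts above the bars. Promoter and intron regions were 10 and 9 of the 20 member regions, and no member summit lay in an exon.

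By median rank, the regions at promoters of other genes stood above the own promoter and intron regions, at 2135.5 over 6 regions, 757 to 6325. The median was 4625.5 over the 4 own promoter regions, 2249 to 6170, and 4596 over the 9 intron regions, 2082 to 7271. These ranges overlapped, and the order was not tested. Over all optimal regions the median rank was 3324 at promoters, 3935 in introns and 4157 between genes. The median over the 20 member regions was 3587.5, with 11 at rank 3713 or better (the middle of the set), 1 among the first 1000 and 0 in the top decile. The first rank of the set, 757, belonged to the region near SPARC, and the last, 7271, to the region in Syn near Timp.

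Both replicates placed a candidate summit at most 100 bp from each of the 20 optimal summits, as they did for 93.6% of all optimal regions. Since the optimal set was selected from these same replicates, such agreement is no independent check. The median distance between the optimal and the replicate summit was 12.5 bp in replicate 1 and 7 bp in replicate 3. Both replicates had 18 of the 20 among their own 7426 strongest regions, against 79.6% of all optimal regions. The exceptions were the Timp region in Syn, outside in replicate 1, and the Mmp2 region 1778 bp downstream of the upstream TSS, outside in replicate 3. With lists of equal length, 5 members had an own promoter region in replicate 1 alone, against 24.4% of all genes, and 4 in replicate 3 alone, against 28%. The additional gene of replicate 1 was LanB2. In the longer pooled list, 9 members had a candidate in the locus, against 77.9% of genes, and 6 had one at an own promoter, against 43.5%. The members closest to the threshold were the optimal regions with signal values of 119.6 and 114.0 (Mmp2) and 101.0 (Timp) on the inside, and pooled candidates of 89.0 (Mmp2) and 87.3 (SPARC) on the outside.

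**Figure D3:**
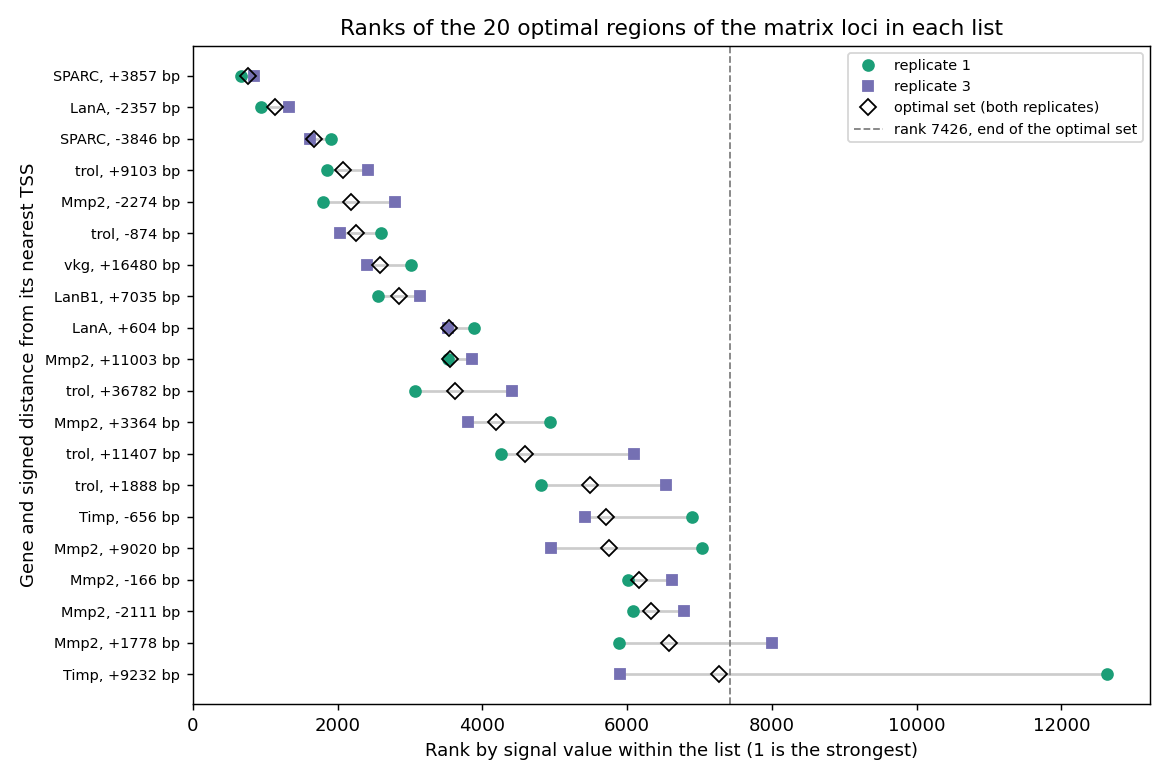
Rank by signal value (x axis, 1 is the strongest) of the 20 member regions in replicate 1 (circles), replicate 3 (squares) and the optimal set (diamonds), with each row named by gene and signed distance from the nearest TSS of that gene, and a dashed line at rank 7426. All rows but 2 have both replicates left of the line.

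At the summit, member regions were rich in A and T. GC content within 50 bp of the summit was 32.9% ± 6.68 over the member regions (SD over 20 regions), against 33.9% ± 8.10 over all optimal regions. In the flanks of member regions it was 44.2% ± 5.76, against 43.8% ± 7.41 over all optimal regions. GC content was below that of the flanks at 17 of 20 member summits, the exceptions being the Mmp2 promoter, the LanB1 3′ flank and a trol intron region, against 82.2% of all. The longest A and T run had a median of 9.5 bases, 5 to 18, at the member summits and of 10 bases over all. These values did not set the member regions apart from other optimal regions. The NR5 core AAGGTCA was found, searching both strands within 50 bp, at 1 of the 20 summits, centred 8 bp before the LanB1 3′ flank summit, against 0.929% of all summits. Its shorter part AGGTCA, which overlaps it, was found at that same summit alone, against 1.99% of all, and at 2 member summits when the window was 100 bp to each side. The full extended site TCAAGGTCA was at 0 of 20, against 0.0943% of all. The run TTTAAAA was at 3 of 20, all at the Mmp2 locus, against 13.7%. Sites of other factors were at 0 of 20 as well: the AP-1 site TGACTCA, against 0.821% of all summits, the STAT site TTCNNNGAA, against 3.58%, the GAGA element GAGAG, against 8.79%, and TATCGATA, a replication-related element, against 1.23% for it and 3% for its part TATCGAT. A match describes letters in the window and does not show a bound site.

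**Figure D4:**
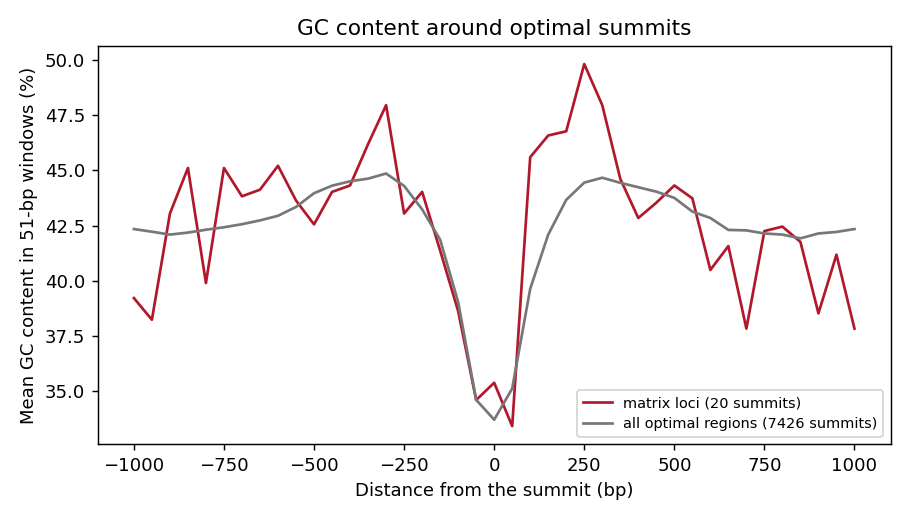
Mean GC content in 51-bp windows (y axis, %) by distance from the summit (x axis, bp) for the 20 member regions (red) and all 7426 optimal regions (grey). Both lines dip at the summit, and the member line is uneven because it averages 20 regions.

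Further genes of the same matrix pathway were counted by role, for 53 of 56 listed symbols found in the annotation. Of these, 20 had an optimal region at an own promoter (37.7%, against 25.2% of all genes) and 38 had one in the locus (71.7%, against 53.3%). The shares were not matched for gene length and were not tested, and the lists were chosen with earlier results of these data known. Among 14 other basement membrane components, 4 had an own promoter region, with ranks of 1897 at the glypican dlp, 4356 at Glt (glutactin), 6311 at Cow, a secreted heparan sulfate proteoglycan, and 6478 at Mp (multiplexin, a collagen XV and XVIII relative). The glypican dally had none at its promoter and 6 in its locus. Among 16 matrix receptor and adhesion genes, 5 had one, with ranks of 891 at Dg (dystroglycan, a laminin receptor), 1548 at Vinc (vinculin), 1716 at scb (an integrin alpha chain) and 3187 at mys (the integrin beta chain). The collagen receptor relative Ddr had none. The Dg region ranked 895 in replicate 1 and 941 in replicate 3, above any own promoter region of the 10 members.

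Among 13 genes of matrix secretion and collagen modification, 5 had an own promoter region. The ranks were 2351 at Sec23 and 6124 at Sar1, both of the coat that carries cargo out of the endoplasmic reticulum, 4496 at Tango1, which loads collagen there, and 6638 at Rab10, which directs matrix secretion. The Tango1 region had a candidate in replicate 3 at rank 3201 and none within 100 bp in replicate 1. ergic53 had no promoter region. Among 10 other matrix proteases and inhibitors, 6 had one, with ranks of 2666 at CtsB (cathepsin B), 3183 at Reck (a membrane-anchored protease inhibitor in mammals), 4837 at AdamTS-B and 5684 at AdamTS-A, secreted metalloproteinases. The CtsB region had no replicate 1 candidate within 100 bp. Kul had none at its promoter. All 10 had an optimal region in the locus, against 53.3% of all genes, and several of these genes are long. Taking the 7426 strongest regions of each replicate, own promoter regions were found for 3 other basement membrane components in replicate 1 and 4 in replicate 3. The counts were 6 and 5 for receptors and adhesion, 4 and 7 for secretion and modification, and 5 and 7 for other proteases and inhibitors, replicate 1 being given first. Of all genes, 24.4% had an own promoter region in replicate 1 and 28% in replicate 3 at this setting.

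**Figure D5:**
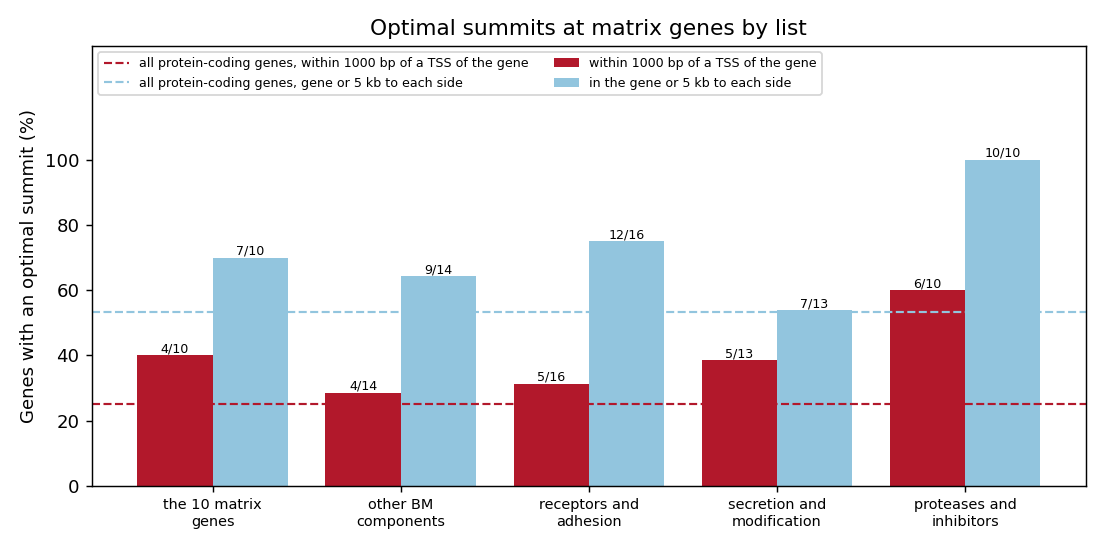
Share of genes (y axis, %) with an optimal summit at an own promoter (red bars) or in the gene and 5 kb flanks (blue bars), for the 10 member genes and the 4 wider lists, with counts above the bars. Dashed lines give the shares of all protein-coding genes, 25.2% and 53.3%. The member genes stood at 4 and 7 of 10.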

How the data were processed

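Hr39-eGFP ChIP-seq was analysed from region lists on dm6, with 2 biological replicates in 1 group. Per the deposited notes, each candidate list came from 1 replicate or from the pair, in every case with 1 control alignment, and the optimal set was selected by the irreproducible discovery rate, which compares ranks between replicates. Which aligner and peak caller were run is not given in the sources used here. Each region carries a signal value set by the authors, which served here for ranking inside each list. The −log10 q values that the authors deposited were not used for ranking. Depth is unknown because the lists hold no read numbers, and the interval given covers only the number of regions.

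Regions on the arms were kept, which left out 18 of 7444 optimal regions, on the mitochondrial genome. The 7426 left were exactly the pooled regions of highest signal, and replicate values use the 7426 strongest regions of each replicate. Genes came from Ensembl release 115, and bases from the RefSeq Release 6 genome. A summit took its class from promoters first, then coding sequence, other exons, introns and intergenic space. GC flanks were windows centred 500 bp to each side of the summit. Regions in overlapping windows (vkg and Col4a1) were counted once. With 1 group and genes chosen by name, no test was made. The dm3 lists were not used. The counting of positions in a window was tested on simulated data, where 200 of 200 simulated loci were recovered. This did not test the annotation, the summit positions or the classes.

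The members and lists were chosen with earlier results of these data known. The text names all 10 members, up to 3 highest-ranked regions of each, and from each wider list up to 4 genes with the highest-ranked promoter region and the first in alphabetical order without one. The own promoter and threshold regions of Mmp2, and candidates of genes without an optimal region, were added after their values were seen. Of 56 listed symbols, 4 were matched by an older symbol and 3 were not matched. Analyses used pandas 2.3.3, numpy 2.4.6 and scipy 1.17.1 in Python 3.11.15, with plots from matplotlib 3.10.9.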

Additional observations from a re-analysis of the deposited data

How the results depend on the processing

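Of 45 alternative values for 12 results, 35 stayed within 1.5 times the reported value. Without the flanks, 3 members rather than 7 had an optimal region, and the number of regions was 10 rather than 20. Keeping only regions with signal above the median of the set left 11 regions and 2 members with an own promoter region, rather than 4. With a promoter distance of 500 bp, 1 member had one and the promoter share of the regions was 30% rather than 50%. Without the flanks that share was also 30%. Counting TSSs of any gene, an alternative added after the data were seen, 7 members had one, since regions at neighbouring genes then count. Shares of all genes were not computed for the settings with another promoter distance, signal limit or choice of TSSs. Promoter shares of all optimal regions were not computed at these settings or without the flanks. Counting TSSs of the member genes alone, already the definition for the count of members, lowered the promoter share of the regions to 20%. The AGGTCA matches were 2 in windows of 100 bp to each side. Leaving out a replicate gave 7 and 8 members with a region, 4 and 5 with an own promoter region, 20 and 20 regions, and promoter shares of 50% and 55%. The values without replicate 1 are given first. Of all genes, 28% and 24.4% had an own promoter region at these settings. The share of all genes with a region in the locus is not given for a single replicate, so 7 and 8 have no such value beside them. No paired analysis was possible because there is 1 group. The number of replicates, unknown depth and 20 regions limit what a difference in share could show.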

Other observations

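The strongest regions over the wider matrix lists were chosen for naming after their values were seen, and most lay away from the promoters of the listed genes. In the locus of Kul, an ADAM-family metalloproteinase gene, the strongest region ranked 58 among optimal regions, with 62 in replicate 1 and 59 in replicate 3, and it was 110 bp from a TSS of CG7601, outside Kul. The strongest region near stl, a secreted metalloproteinase gene of the ADAMTS family, ranked 143, 154 and 141 in the same lists and was intergenic, 4892 bp from its nearest stl TSS. In contrast, the strongest region of mew, an integrin alpha chain gene, lay in an intron of mew itself, 5686 bp from its TSS, at ranks 340, 317 and 335. Which gene, if any, these regions act on was not tested.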
